A study of Danio rerio with 4 samples.

Results

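The cells rich in ptgs2 were the wells with the largest share of transcripts from this gene among tcf21:mCherry-positive cells of the injured zebrafish heart. A well entered with at least 1000 transcripts of genes. Of those wells, the 10% with the highest share of ptgs2 on all plates together were taken as members, selected on measured PTGS2 level, if they held at least 3 of its transcripts. Of 1453 wells kept, 145 were chosen and 1308 were left for comparison. The gene is listed as PTGS2, ENSDARG00000004539, and a second gene with the same symbol, ENSDARG00000010276, was kept apart by its ID. As the rule used the level of PTGS2 in these same wells, its level in them is a description, with no test against the other wells. The rule did not use the genotype.

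The study sorted epicardial-derived cells by SORT-seq, in which a single cell is placed in each well of a 384-well plate and each transcript carries 2 tags, for the well and for the molecule. There were 4 plates, 2 from wild-type siblings and 2 from prrx1b-/- fish, all from ventricles taken 7 days after cryoinjury (7 dpi), in which part of the ventricle is killed by freezing. All fish were adults that carried tcf21:CreERT2 and a ubiquitous loxP-EGFP-loxP-mCherry reporter, recombined as embryos, so that cells of the tcf21 lineage and their descendants were red, and mCherry-positive, EGFP-negative cells were sorted. The question was how the loss of Prrx1b, a homeodomain transcription factor, changes these cells. Hearts of 20 fish of each genotype were taken, and the sources used here do not say which fish gave which plate. The plates served as the units of every test, and p-values measure the spread between plates, which may be technical. The recombined line marks only some epicardial-derived cells, and the driver also limits the cells to those that once expressed tcf21.

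Prostaglandins are lipid signals made from arachidonic acid, which phospholipase A2 frees from membranes. Cyclooxygenases turn it into prostaglandin H2: ptgs1 is the form most cells make at all times, and ptgs2 is induced by cytokines, growth factors and injury. Terminal synthases then make prostaglandin E2, D2, prostacyclin or thromboxane, which leave the cell and act on receptors of nearby cells, among them the ptger receptors for prostaglandin E2.

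PTGS2 transcripts were common among the sorted cells. At least 1 was counted in 1049 wells (72.2%), and 404 wells had none. In the PTGS2-rich cells the count ran from 6 to 161 with a median of 33.1, and the share of the well's transcripts from 0.300% to 2.17% with a median of 0.404%. The last well taken had 0.300% and the first left out 0.298%, so the cells are the upper end of a continuous range and not a separate group. Only 4 wells exceeded 1%, all on mutant plate 2, which also held 9 of the 10 highest shares. In the highest of them, 65.5 of 3023 transcripts were PTGS2. Together the PTGS2-rich cells held 38.8% of all PTGS2 transcripts and 10.5% of all transcripts. They lay in all parts of the plates, with 39, 36, 36 and 34 cells in the 4 successive blocks of well numbers, and the same 384 well barcodes were used on every plate by design.

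**Figure D1:**
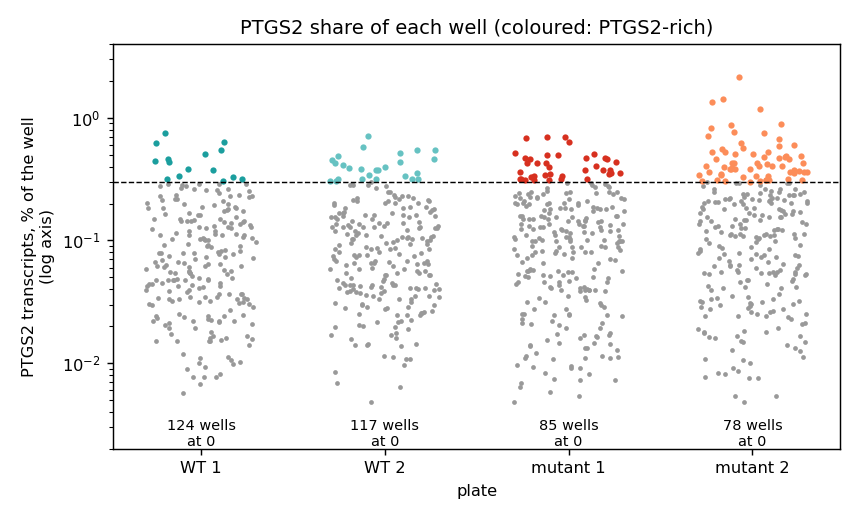
Share of PTGS2 in the transcripts of each well (log axis, percent) by plate, with PTGS2-rich cells coloured, other wells in grey and the dashed line at the lowest share taken, 0.300%. Shares fill the range below the line without a gap, and the number of wells with no PTGS2 transcript, which a log axis cannot show, is printed at the foot of each plate.

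Depth could steer such a choice, and it was compared first. The median number of transcripts per PTGS2-rich cell was 5790.2, 6397, 8326 and 8238 in wild-type plates 1 and 2 and mutant plates 1 and 2, against 6124, 5026, 7467 and 7156 in the other wells. The PTGS2-rich cells were deeper on 3 of 4 plates (exact sign-flip permutation test, p = 0.25). With every well thinned to 1000 transcripts, they had fewer genes on all 4 plates, by 13.1 on average (p = 0.13, the smallest the exact test allows). Genes picked by ribosomal protein names took a larger share on all 4 plates, by 0.957 percentage points of the medians (exact p = 0.13). The mitochondrial share was lower on 3 plates and higher on 1. The lowest adjusted p of the 7 such measures was 0.292. None could pass the threshold of 0.05, since the smallest p of this test on 4 plates, 0.13, lies above it. The test therefore cannot decide whether depth or composition differed between the groups. The comparison of PTGS2-rich cells with other wells was also computed with thinned wells and with wells of matched depth, and the comparisons between genotypes by gene were not. None of the 3 wells with over 30% mitochondrial transcripts was PTGS2-rich.

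PTGS2-rich cells were more frequent on the mutant plates. They were 15, 26, 38 and 66 of 357, 364, 366 and 366 wells on wild-type plates 1 and 2 and mutant plates 1 and 2. As percentages these were 4.2%, 7.14%, 10.4% and 18.03%, with exact Clopper-Pearson 95% intervals of 2.37 to 6.84, 4.72 to 10.3, 7.45 to 14.0 and 14.2 to 22.4, which cover counting error only. The means were 5.67% ± 2.08 (SD, n = 2) in wild type and 14.2% ± 5.41 in prrx1b-/-, a difference of 8.54 percentage points. Both mutant plates lay above both wild-type plates, and an exact permutation test of 2 plates against 2 gave p = 0.33, the smallest it allows. Without mutant plate 2, the difference was 4.71 percentage points.

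Levels of PTGS2 over all wells followed the same order, at 827, 920.0, 1187 and 1659.9 transcripts per 1000000 of all transcripts (CPM) on the 4 plates. By edgeR's quasi-likelihood test with Benjamini-Hochberg adjustment, PTGS2 was 1.64-fold higher in prrx1b-/- (log2 fold change 0.72, SE 0.17), which did not pass the threshold of 0.05 (adjusted p = 0.0748). Over all wells, 109 of 11191 genes passed (0.974%), 40 of them higher (0.357%) and 69 lower (0.617%) in the mutant. The wells outside the PTGS2-rich group held 694, 708, 864 and 928 CPM of PTGS2, so that their levels too were above the wild type on both mutant plates. Within the PTGS2-rich cells, where the rule sets the lowest share, the levels were 4402, 4002, 4053 and 4653 CPM. After thinning to 1000 transcripts, PTGS2 was found in 37.0%, 39.6%, 45.4% and 53.3% of wells (exact permutation p = 0.33).

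**Figure D2:**
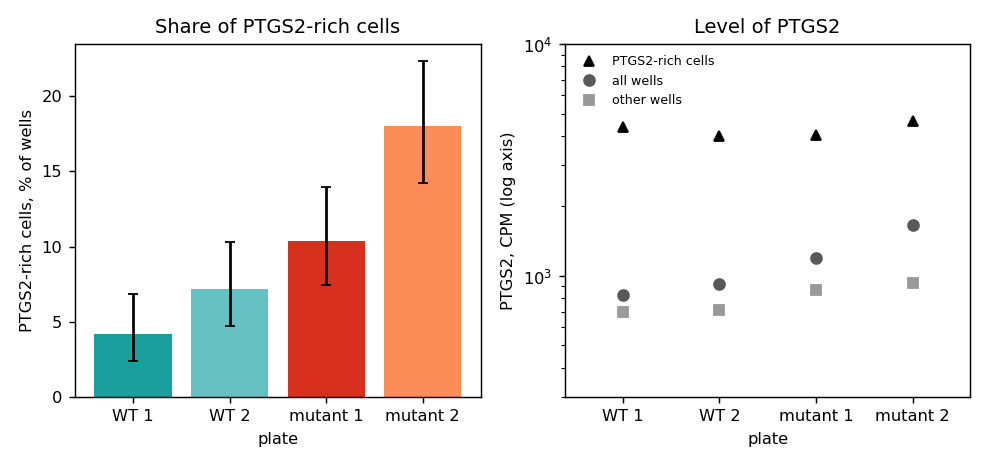
Left, PTGS2-rich cells as a percentage of the wells of each plate (bars) with exact 95% intervals for counting error. Right, PTGS2 in CPM (log axis) in PTGS2-rich cells (triangles), all wells (circles) and other wells (squares) of each plate. Wild-type shares are 4.2% and 7.14% and mutant shares 10.4% and 18.03%, and the levels in the other wells are 694 and 708 CPM in wild type and 864 and 928 in the mutant.

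The genotype could not be checked through the targeted gene. The symbol PRRX1 belongs to ENSDARG00000033971, with 117, 122, 97.0 and 138 CPM on the 4 plates, and to ENSDARG00000042027, with only 34 transcripts in all. The files do not say which of them is prrx1b, and a nonsense allele need not lower the transcript. TCF21, the transcription factor whose promoter drove the label, was low in both groups. It had 96.3, 125, 52.5 and 47.3 CPM in the PTGS2-rich cells and 98.3, 117, 103 and 74.5 in the other wells, with overlap and no call (log2 fold change -0.40, adjusted p = 0.528).

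To ask what else distinguished the PTGS2-rich cells, transcripts were summed per plate over these cells and over the other wells, and PTGS2 was left out of the tested genes and of the totals. From here on CPM leaves PTGS2 out of the total, except for levels over all wells, where it stays in. Values are given in the order wild-type plates 1 and 2, mutant plates 1 and 2. With the plate as a block, edgeR called 239 of 8594 genes (2.78%) at an adjusted p under 0.05. There were 150 higher (1.75%) and 89 lower (1.04%) in the PTGS2-rich cells, and the median log2 fold change over all genes tested was -0.08. Mutant plate 2, which gave 66 of the 145 cells, carried much of this count. Without it 95 genes were called, 69 higher and 26 lower, all of them among the 239, and without wild-type plate 2 the count was 159, of which 139 were among the 239. An unadjusted p under 0.05 was found for 1027 genes (11.95%). DESeq2 called 174. Levels on each plate in the 2 groups did not overlap for 220 genes higher (2.56%) and 565 genes lower (6.57%) in the PTGS2-rich cells.

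No other gene of the prostaglandin pathway passed the test. Of 11 genes for enzymes, 0 were called by edgeR or DESeq2, with a median log2 fold change of 0.29. An unadjusted p under 0.05 was found for 1 of the 11, against 11.95% of all genes tested. Summed levels, here and for the later lists, take in every measured gene, tested or not. Over the 19 measured enzyme genes they were 848 to 1019 CPM in PTGS2-rich cells and 708 to 901 in other wells. Within each of the 4 plates the sum was higher in the PTGS2-rich cells. PTGES, the inducible synthase of prostaglandin E2, was the most abundant of these enzyme genes. Its levels were 299, 510.4, 478 and 488 CPM in the PTGS2-rich cells and 356, 328, 389 and 436 in the other wells, higher on 3 of 4 plates (log2 fold change 0.29, SE 0.15, adjusted p = 0.454). After thinning it was present in 33.1% of PTGS2-rich cells and 24.5% of other wells. This and the later percentages of wells with a transcript pool the 4 plates. Mutant plate 2 gave 66 of the 145 PTGS2-rich cells but 300 of the 1308 other wells, so these percentages mix plate with group.

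PLA2G4A (ENSDARG00000024546), the cytosolic phospholipase A2 that frees arachidonic acid, had 241, 89.0, 173 and 201 CPM against 92.9, 106, 117 and 151, higher on all plates but wild-type plate 2 (log2 fold change 0.58, adjusted p = 0.141). The constitutive ptgs1 had 28.9, 29.7, 10.5 and 17.8 CPM against 16.0, 7.33, 8.56 and 11.9 (log2 fold change 0.90, adjusted p = 0.460). The second PTGS2 gene had 193 transcripts in all wells, at 0, 5.93, 47.3 and 11.8 CPM against 9.97, 15.5, 14.8 and 18.01 (log2 fold change 0.32, adjusted p = 0.877). The last 2 genes had 24 and 27 transcripts in the PTGS2-rich cells.

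Several terminal synthases were near the limit of detection, though PTGES3 had 885 transcripts in all wells. The thromboxane synthase TBXAS1, the prostaglandin D synthase ptgdsb.1 and the membrane synthase PTGES2 had 17, 16 and 6 transcripts in the PTGS2-rich cells, and none was called (adjusted p = 0.536, 0.429 and 0.741). The reductases CBR1, cbr1l and AKR1B1, which convert prostaglandins, had log2 fold changes of -0.07, -0.13 and 0.23 (adjusted p = 0.987, 0.930 and 0.713). PTGES3, a co-chaperone that also has synthase activity, was lower on each plate at 19.3, 53.4, 65.6 and 47.3 CPM against 71.2, 67.6, 72.3 and 74.2, without a call (log2 fold change -0.47, adjusted p = 0.502). HPGD, which inactivates prostaglandins, had 33.0 transcripts in all wells and PTGIS, the prostacyclin synthase, 54.0, too few to be tested in this comparison. Over all wells both entered the test between the genotypes, and neither was called.

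Receptors and transporters were measured in the same wells, although a signal that leaves the cell may act elsewhere. Of 5 tested, 0 were called by edgeR or DESeq2, with a median of 0.42. An unadjusted p under 0.05 was found for 1 of the 5, against 11.95% of all genes tested. PTGER2, a receptor for prostaglandin E2, had 154, 65.3, 78.8 and 53.3 CPM against 70.5, 54.9, 50.5 and 53.7 (log2 fold change 0.52, adjusted p = 0.384). PTGER4, also a receptor for prostaglandin E2, had 9.63, 0, 55.1 and 29.6 CPM against 21.7, 36.2, 40.1 and 45.0 (log2 fold change -0.39, adjusted p = 0.767). PTGER3, PTGIR (the prostacyclin receptor) and ABCC4 (a transporter that exports prostaglandins) had log2 fold changes of 0.47, 0.13 and 0.42 (adjusted p = 0.843, 0.933 and 0.613). Of the lipoxygenase and leukotriene genes, the other branch from arachidonic acid, LTA4H alone passed the filter on low counts, with a log2 fold change of -0.21 (adjusted p = 0.949).

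Of 19 genes for inflammatory signals, 5 were higher in the PTGS2-rich cells and 2 lower, with a median of 0.32. Over all genes tested, 1.75% were called higher and 1.04% lower, the base for the counts of this and the later lists. The summed level of the list was 9248 to 11942 CPM in PTGS2-rich cells and 6703 to 7804 in other wells. Most of this gap on each plate came from cxcl18b and il11a, so the sum does not speak for the rest of the list. The chemokine gene cxcl18b, whose product attracts neutrophils in zebrafish, was at 3728, 4409, 5304 and 4585 CPM against 2429, 1916, 2560.0 and 2408. All PTGS2-rich values lay above all others, a 2.00-fold difference (log2 fold change 1.00, SE 0.10, adjusted p = 1.32e-07). The cytokine gene il11a was at 1262, 1098, 1218 and 1385 CPM against 616, 625, 719.7 and 752. Again there was no overlap, with a 1.88-fold difference (log2 fold change 0.91, SE 0.11, adjusted p = 3.46e-06).

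After thinning, with the plates pooled, cxcl18b was found in 83.4% of PTGS2-rich cells and 70.6% of other wells, and il11a in 45.5% and 30.9%. The other 3 genes of the list that rose were named after their values were seen. They were csf1a, a growth factor for macrophages (log2 fold change 0.90, adjusted p = 0.00248), TNFAIP3, which restrains NF-κB signalling (0.61, adjusted p = 0.00215), and nfkbiaa, an inhibitor that holds NF-κB in the cytoplasm (0.52, adjusted p = 0.0103). The 2 genes that fell were cxcl12b, a ligand of the Cxcr4 receptor, and MMP9, a gelatinase, each with only 6 transcripts in the PTGS2-rich cells. They had log2 fold changes of -3.09 and -2.83 (adjusted p = 1.89e-04 and 0.00153), and 66.7% of the MMP9 transcripts came from 1 well. Without mutant plate 2, the count for the list was 2 higher and 0 lower, and the 2 were cxcl18b and il11a, which passed in every alternative tried. Over all genes, 69 were called higher and 26 lower without that plate.

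ZFP36L1, IRAK3 and c7b rose as well. ZFP36L1 (ENSDARG00000021443), which binds AU-rich messenger RNAs and speeds their decay, was at 6011, 4539.9, 5472 and 4401 CPM against 2861, 2407, 2782 and 3039. The groups did not overlap, and the difference was 1.89-fold (log2 fold change 0.92, SE 0.10, adjusted p = 2.07e-07). A second gene of this symbol, ENSDARG00000016154, was not called (0.17, adjusted p = 0.811), and the symbol alone stands for the first. IRAK3, which dampens Toll-like receptor signalling, was at 193, 142, 202 and 183 CPM against 63.4, 36.6, 81.8 and 87.1. It too showed no overlap, with a 2.75-fold difference (log2 fold change 1.46, SE 0.20, adjusted p = 1.54e-05). The gene c7b, for complement component 7 of the membrane attack complex, was at 135, 320.5, 152 and 478 CPM against 67.7, 28.9, 68.5 and 85.0. Wild-type plate 2 and mutant plate 2 were high and the other plates lower, but all 4 exceeded all other wells, and the difference was 4.42-fold (log2 fold change 2.15, SE 0.25, adjusted p = 1.91e-06). Only 12.4% of PTGS2-rich cells and 4.51% of other wells had a c7b transcript after thinning, with the plates pooled. ZFP36L1, IRAK3 and c7b passed in every alternative tried.

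Immediate early genes, which cells switch on within minutes of a stimulus or of tissue dissociation, did not move as a block. Of 22 tested, 3 rose and 2 fell, against 1.75% and 1.04% of all genes tested, with a median of 0.08. FOSB rose at 3526, 2457, 3624 and 2855 CPM against 2452, 1726, 2098 and 2401 (log2 fold change 0.56, adjusted p = 6.44e-04), while FOS fell at 1801, 1513, 1796 and 1330.0 CPM against 3459, 2642, 2157 and 2118 (-0.62, adjusted p = 6.22e-04). Neither gene overlapped between the groups, and egr2a, with 24 transcripts in the PTGS2-rich cells, fell as well (-1.67, adjusted p = 0.00332) but not without mutant plate 2 (-1.83, adjusted p = 0.0988). ZFP36L1 and IER5 were the other genes of the list to rise, and IER5 was named after its values were seen (0.46, adjusted p = 0.0396). Of 16 heat shock genes, only hsp70l was called. It was lower on every plate, at 1435, 872, 1415 and 1203 CPM against 2564, 1391, 2184 and 2328 (-0.73, adjusted p = 3.10e-05).

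**Figure D3:**
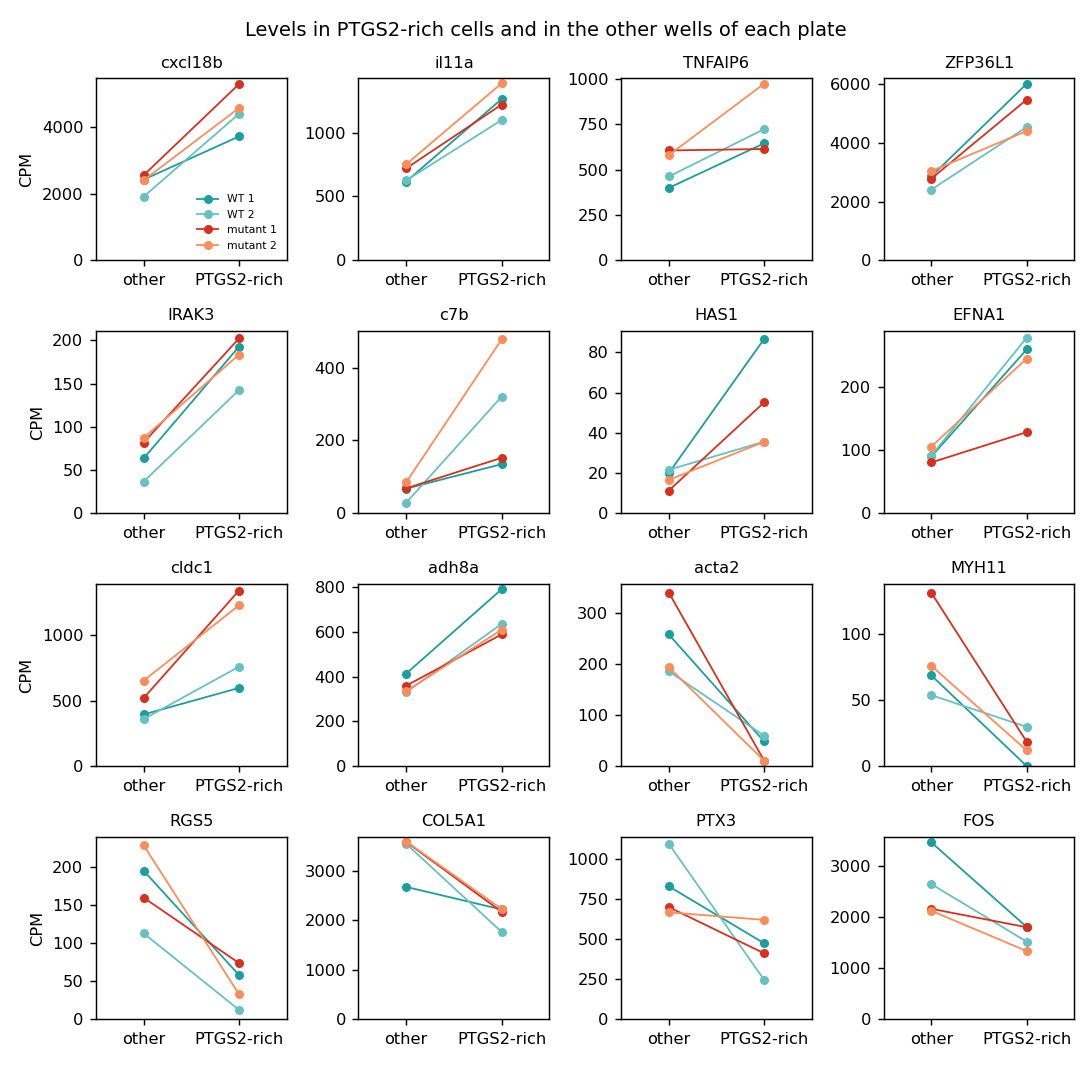
Levels (CPM, linear axes from 0) of 16 genes in the other wells (left) and the PTGS2-rich cells (right), with a line for each plate. Lines for cxcl18b, il11a, ZFP36L1 and IRAK3 rise on all 4 plates with no overlap between the groups, and those for acta2, MYH11, RGS5 and COL5A1 fall on all 4.

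Genes of the hyaluronan-rich matrix were split. HAS1, a hyaluronan synthase, was at 86.7, 35.6, 55.1 and 35.5 CPM against 19.9, 21.6, 11.2 and 16.6. Its 2 sets of values did not overlap, and the difference was 3.08-fold (log2 fold change 1.63, SE 0.34, adjusted p = 0.00339), from 60 transcripts in PTGS2-rich cells, and the call was lost without mutant plate 1 (1.31, adjusted p = 0.113). TNFAIP6, which binds hyaluronan and is induced in inflammation, was at 645, 724, 614 and 975 CPM against 399.9, 463, 606 and 580.1 (0.57, adjusted p = 0.0109). The gap on mutant plate 1 was small, and the call was lost without wild-type plate 2 (0.53, adjusted p = 0.0728) or mutant plate 2 (0.50, adjusted p = 0.213). In the opposite direction, vcanb, for the proteoglycan versican, fell (-1.15, adjusted p = 0.0393, from 41 transcripts), and this call held only when all plates or all but wild-type plate 2 were used (without mutant plate 2, -0.98, adjusted p = 0.434). Among the 8 genes tested, 2 rose and 1 fell, against 1.75% and 1.04% of all genes tested.

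Of 5 markers of the epicardium that covers the injury, 2 were higher and 0 lower, against 1.75% and 1.04% of all genes tested. The summed level of the list was 2439 to 3253 CPM in PTGS2-rich cells and 1555 to 2011 in other wells. The gene listed as cldc1 was at 597, 759.6, 1342 and 1229 CPM against 395, 359, 519.6 and 653 (log2 fold change 1.06, SE 0.13, adjusted p = 4.86e-06). It was higher on all 4 plates, though wild-type plate 1 lay below the other wells of mutant plate 2, and the call was lost when only the top 5% of wells were taken (0.62, adjusted p = 0.0899). The alcohol dehydrogenase gene adh8a was at 789.9, 635, 588 and 609.5 CPM against 413, 330.0, 359 and 335, with no overlap (log2 fold change 0.90, SE 0.13, adjusted p = 2.52e-05). ALDH1A2, which makes retinoic acid, and wt1b, an epicardial transcription factor, had log2 fold changes of 0.42 and 0.49 and missed the threshold (adjusted p = 0.0632 and 0.0835). The text of the paper gives these 2 genes as highest in its injury epicardium cluster and does not name cldc1 or adh8a. The list was chosen with earlier results of these data known. No gene of the list of 4 remote epicardium markers was called (median -0.20). Of 10 markers of the epicardial mesothelium, 0 rose and krt18a.1 fell (-0.44, adjusted p = 0.0126), a call that was lost without wild-type plate 1 and without either mutant plate (without mutant plate 2, -0.48, adjusted p = 0.0826).

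Genes of pericytes and smooth muscle had the lowest median of the lists, -1.23. Of 11 tested, 6 were lower and 0 higher, against 1.04% and 1.75% of all genes tested. The summed level of the list was 1312 to 1536 CPM in the PTGS2-rich cells and 1725 to 2363 in the other wells. Smooth muscle actin acta2 was at 48.2, 59.3, 10.5 and 10.4 CPM against 257, 186, 339 and 193 (log2 fold change -3.39, SE 0.32, adjusted p = 4.56e-08). RGS5, a pericyte marker, was at 57.8, 11.9, 73.5 and 32.5 CPM against 195, 113, 159.7 and 229 (log2 fold change -2.00, SE 0.27, adjusted p = 1.28e-05), and MYH11, the smooth muscle myosin, at 0, 29.7, 18.4 and 11.8 against 68.7, 53.7, 131 and 76.0 (-2.44, adjusted p = 2.64e-05). None of the 3 overlapped between the groups. Transcripts of acta2, RGS5 and MYH11 were found in 13.1%, 20.0% and 7.59% of PTGS2-rich cells and 17.3%, 22.5% and 11.3% of other wells. After thinning these were 1.38%, 6.21% and 2.76% against 5.73%, 11.3% and 5.66%. All these percentages pool the plates. The levels of these genes thus rest on a minority of wells in both groups. CSPG4 (-1.85, adjusted p = 0.00188), TAGLN of ID ENSDARG00000045408 (-1.24, adjusted p = 5.22e-05) and NOTCH3 (-0.99, adjusted p = 0.0365) fell too, whereas the second TAGLN gene, ENSDARG00000033466, had a log2 fold change of -0.07 (adjusted p = 0.893) and rgs5b one of 0.31 (adjusted p = 0.480). The study marked its pericytes by kcnj8 and notch1b. Neither KCNJ8 (-1.23, adjusted p = 0.153) nor NOTCH1 of ID ENSDARG00000052094 (0.11, adjusted p = 0.934) was called.

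The wells that carry such genes differ between the groups, and their part was looked at by leaving out every well with an acta2, MYH11, RGS5 or CSPG4 transcript, an alternative chosen after seeing the data. Those were 58 of 145 PTGS2-rich cells (40.0%) and 613 of 1308 other wells (46.9%). A single such transcript removed a well, so deep wells were more likely to go, and the step does not single out pericytes. It left 87 PTGS2-rich cells and 695 other wells, and whether calls were lost through these smaller numbers was not tested. In the rest, 81 genes were called, 68 of them among the 239. The differences in cxcl18b (1.06, adjusted p = 1.08e-06), il11a (1.098, adjusted p = 8.94e-06), ZFP36L1 (0.94, adjusted p = 2.37e-05), IRAK3 (1.30, adjusted p = 0.00220), c7b (1.93, adjusted p = 1.06e-08) and HAS1 (1.84, adjusted p = 0.00195) remained past the threshold. For the injury epicardium list 0 of 5 did, as cldc1 (0.62, adjusted p = 0.122) and adh8a (0.34, adjusted p = 0.781) kept their direction and lost the call.

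Of 15 fibroblast genes, 10 were lower in the PTGS2-rich cells and 0 higher, against 1.04% and 1.75% of all genes tested, with a median of -0.49. The summed level was 40884 to 52138 CPM in PTGS2-rich cells and 42957 to 63112 in other wells, lower on all 4 plates. COL5A1, a chain of collagen V, was at 2216, 1763, 2169 and 2224 CPM against 2673, 3545, 3585 and 3592, with no overlap (log2 fold change -0.63, SE 0.10, adjusted p = 1.43e-04). The collagen I genes COL1A2 (-0.55, adjusted p = 0.00165), COL1A1 (-0.47, adjusted p = 0.00256) and col1a1a (-0.42, adjusted p = 0.0103) fell as well, with the smallest gap on wild-type plate 1. PTX3, a pentraxin of the innate immune response, was at 472, 243, 409.6 and 618 CPM against 828, 1093, 698 and 665 (-0.83, adjusted p = 0.00580), and mutant plate 2 showed nearly no gap. Without wild-type plate 2 the call of PTX3 was lost (-0.48, adjusted p = 0.147). POSTN, for the matrix protein periostin, had 6 transcripts in the PTGS2-rich cells (-2.23, adjusted p = 0.0356), and its call was lost without any one of wild-type plate 2 and the mutant plates. The fibronectin gene ENSDARG00000019815 fell (-0.49, adjusted p = 0.0478), whereas the far more abundant one, ENSDARG00000006526, was at 15086, 26391, 26103 and 22995 CPM against 15394, 16875, 21047 and 24168 (0.26, adjusted p = 0.143).

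The fibroblast count depended on the tool and on single plates, as did the count over all genes. DESeq2 called 2 of the 15. Without mutant plate 2 the count by edgeR was 3 of 15, and without wild-type plate 2 it was 2 of 15, at medians of -0.51 and -0.35. Leaving out the wells with the pericyte genes named above gave 6 of 14 with a median of -0.57. Over all genes tested, 89 were called lower in the main fit and 38 with DESeq2. There were 26 without mutant plate 2, 66 without wild-type plate 2 and 27 without the wells with pericyte genes. These are the base for the counts of this paragraph. Among all 20 collagen genes tested, 8 fell and 0 rose by edgeR, against 1.04% and 1.75% of all genes tested. DESeq2 called 3 (median -0.40), and 3 fell without mutant plate 2 and 3 without wild-type plate 2. The 2 lists share genes, as all of the 8 but col18a1a and COL11A1 were also counted among the lower fibroblast genes. The largest fall was that of col18a1a, a collagen of basement membranes, at 57.8, 107, 26.3 and 23.7 CPM against 173, 239.7, 172 and 220.4, without overlap (log2 fold change -2.23, SE 0.27, adjusted p = 1.91e-06). COL11A1, of the fibril-forming collagens, fell by 0.96 on the log2 scale (adjusted p = 0.0232), and that call was lost without any one of wild-type plate 2 and the mutant plates (without mutant plate 2, -1.35, adjusted p = 0.0576).

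**Figure D4:**
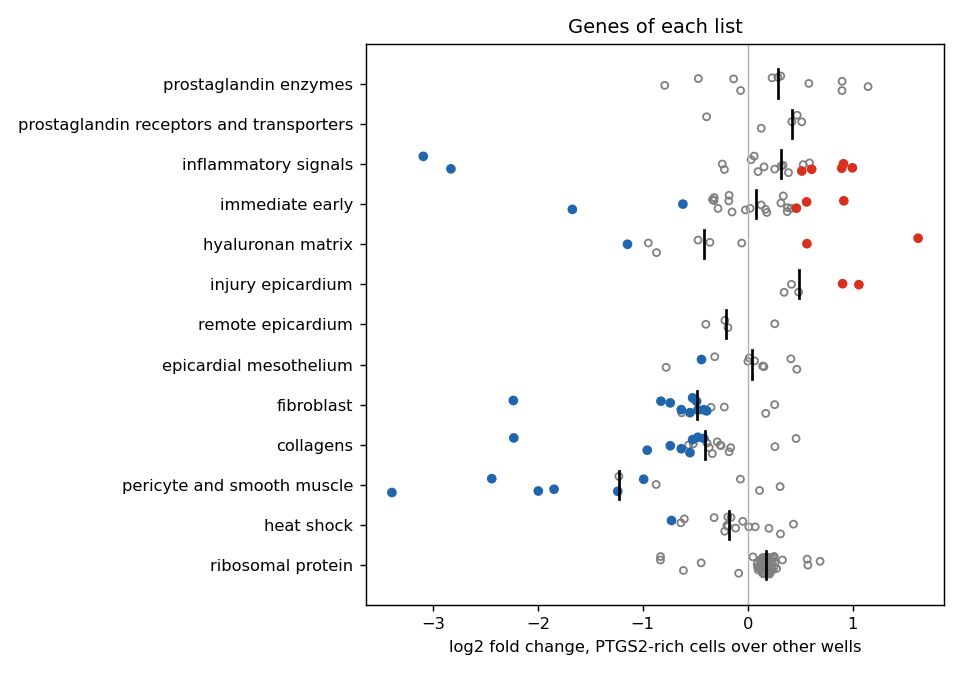
Log2 fold change of each tested gene of 13 lists, PTGS2-rich cells over other wells; filled points passed the threshold (red higher, blue lower), open points did not, and black bars are list medians. Medians lie at -1.23 for pericyte and smooth muscle genes, -0.49 for fibroblast genes and 0.32 for inflammatory signals.

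Other growth and matrix genes moved singly. The glucose transporter SLC2A1 rose (0.75, adjusted p = 0.0276), the only one of 16 hypoxia and glycolysis genes. CCN1, a matrix protein and target of YAP, rose (0.57, adjusted p = 0.00222), the only one of 8 YAP targets, and igf2b, an insulin-like growth factor, rose (0.52, adjusted p = 0.0241), the only one of 7 growth factors. INHBA, a subunit of activin, fell (-0.86, adjusted p = 0.0315), the only one of 13 genes of the TGFβ and activin list, and PCNA, the clamp of DNA replication, fell (-0.96, adjusted p = 0.0298) as the only one of 5 cell cycle genes. All 5 of these calls were lost both without mutant plate 2 and without the wells with pericyte genes, and those of SLC2A1, igf2b, INHBA and PCNA without wild-type plate 2 as well. Without the wells with pericyte genes, igf2b and INHBA changed sign (-0.094, adjusted p = 0.981, and 0.22, adjusted p = 0.953). Calls by edgeR or DESeq2 numbered 0 among 4 EGF family genes, 13 mitochondrially encoded genes and 78 genes picked by ribosomal protein names. In these lists 4, 2 and 19 had an unadjusted p under 0.05, against 11.95% of all genes tested. Of the 78, 73 had log2 fold changes above 0 (median 0.17). The name pattern also took in RPS6KA3, RPS6KA4, rps6kal and rps19bp1, which are not genes of ribosomal proteins.

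Of the remaining genes with the largest rises, EFNA1, the ligand ephrin A1, was at 260.1, 279, 129 and 246 CPM against 90.1, 91.6, 80.6 and 106, with no overlap (log2 fold change 1.28, SE 0.19, adjusted p = 2.78e-05), though the call was lost when wells were thinned (1.16, adjusted p = 0.186). SFRP1, a secreted inhibitor of Wnt, was at 57.8, 83.1, 84.0 and 54.7 against 47.7, 37.0, 26.6 and 22.3, also without overlap (1.26, adjusted p = 0.00488), and lost its call without either mutant plate (without mutant plate 2, 1.24, adjusted p = 0.120). The unnamed si:ch211-174j14.2 had the largest fold change of the genes that met the naming rule (2.27, adjusted p = 2.71e-04), from 64 transcripts. The channel gene hcn2b (1.65, adjusted p = 0.0148), micall2b (1.56, adjusted p = 0.00129), ENSDARG00000041566 (1.41, adjusted p = 2.46e-05) and the RNA-binding protein gene RAVER2 (1.22, adjusted p = 0.0236) rose as well. In these 4 genes the call was lost without the wells with pericyte genes, in hcn2b and RAVER2 also without mutant plate 2. The transcription factor gene twist2 (1.68, adjusted p = 0.00145) rested on few cells, as 46.6% of its transcripts in PTGS2-rich cells came from 1 well. Its call was lost without mutant plate 1 (1.32, adjusted p = 0.134), and it had a log2 fold change of -0.26, adjusted p = 0.982, without the wells with pericyte genes.

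Several genes with few transcripts in the PTGS2-rich cells fell. The peptidase inhibitor gene PI15 (-3.34, adjusted p = 1.91e-06), the lubricin gene prg4b (-3.05, adjusted p = 0.00173) and ASPN, a small leucine-rich proteoglycan (-3.00, adjusted p = 1.54e-05), had 11, 4 and 12 transcripts in the PTGS2-rich cells. NFE2, a transcription factor of blood cells, had 2 against 279 in the other wells, a ratio of 0.0616 per transcript with an exact 95% interval of 0.00743 to 0.225 for counting error. The genes si:dkey-57k2.6, ENSDARG00000068477, ENSDARG00000041190 and EEF2 of ID ENSDARG00000035256 fell too, with log2 fold changes from -2.78 to -2.46 and between 4 and 11 transcripts. Of all these, PI15, ASPN and ENSDARG00000041190 kept their call without mutant plate 2.

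Genes of cell types outside the tcf21 lineage were scarce in both groups. Summed levels of 8 measured endothelial genes were 38.5 to 121 CPM in PTGS2-rich cells and 92.2 to 97.2 in other wells, and those of 10 leukocyte genes 26.3 to 350.1 and 37.5 to 276. For 9 cardiomyocyte genes they were 0 to 164 and 12.6 to 126, and for 5 erythrocyte genes 5.93 to 19.3 and 7.92 to 10.3. The groups overlapped in each list, and edgeR and DESeq2 called 0 of the 7 genes tested. An unadjusted p under 0.05 was found for 3 of the 7, against 11.95% of all genes tested. MYL7, the atrial light chain found in all zebrafish cardiomyocytes, had 3 transcripts in PTGS2-rich cells and 283 in other wells. MPEG1, a macrophage marker, was at 28.9, 17.8, 26.3 and 29.6 CPM against 22.1, 12.6, 7.68 and 12.2 (1.17, adjusted p = 0.153).

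To see whether these levels changed along PTGS2, wells were divided into 4 bins: no PTGS2, some PTGS2 but not rich, and the PTGS2-rich cells below and above their median share. The bins were not tested and differ in depth, as wells without PTGS2 had medians of 3080.0 to 5107 transcripts on the 4 plates and wells with some PTGS2 6494 to 9153. Mean levels of cxcl18b over plates were 1864 ± 297, 2422 ± 290.1, 3769 ± 518 and 5435 ± 993 CPM (SD, n = 4), and those of il11a 415 ± 110.0, 730.0 ± 72.8, 953 ± 72.9 and 1581 ± 275. Both were higher in each further bin, on all 4 plates for both genes. ZFP36L1 stepped up between the wells with some PTGS2 and the PTGS2-rich ones, at 2492 ± 289, 2832 ± 313, 4838 ± 867 and 5374 ± 1269 CPM.

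Genes that fell showed other shapes. RGS5 was concentrated in wells without PTGS2, at 695 ± 225, 68.8 ± 32.8, 48.7 ± 30.8 and 40.0 ± 47.5 CPM, and FOS likewise, at 5301 ± 1335, 2022 ± 392, 1462 ± 209 and 1806 ± 514. The heat shock gene hsp70l was also highest there, at 4537 ± 1286, 1628 ± 372, 1324 ± 668 and 1180 ± 799 CPM. For acta2 the drop lay at the border of the PTGS2-rich cells, at 288 ± 268, 241 ± 49.4, 34.9 ± 33.5 and 28.7 ± 15.1 CPM. PTX3 was highest in wells with some PTGS2, at 251 ± 260.5, 939 ± 204, 494 ± 256 and 372 ± 88.7 CPM, so its direction depended on the reference. Against wells without PTGS2 alone, it was higher in the PTGS2-rich cells (1.35, adjusted p = 0.0385). The marker cldc1 had its highest mean in the PTGS2-rich cells below the median share, at 159 ± 81.6, 545 ± 138, 1093 ± 316 and 835 ± 440.3 CPM.

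**Figure D5:**
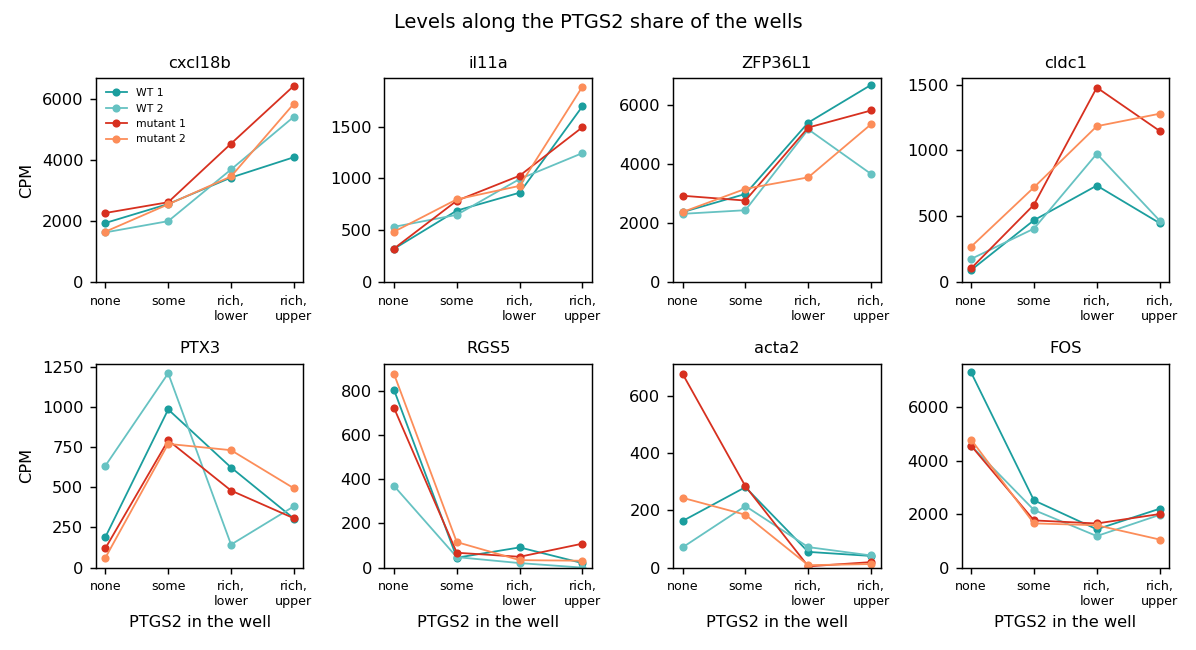
Levels (CPM, linear axes from 0) of 8 genes in 4 bins of wells by PTGS2: none, some, and the PTGS2-rich cells below and above their median share, with a line for each plate. Mean cxcl18b goes from 1864 to 5435 CPM, RGS5 drops between the first bins and PTX3 peaks in wells with some PTGS2.

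Finally, the genotypes were compared within the PTGS2-rich cells, where wild type had 15 and 26 cells. PTGS2 was not removed from the genes or the totals of this test. Of 3288 genes tested, 3 were called (0.0912%), all lower in prrx1b-/-, and 315 had an unadjusted p under 0.05. The unnamed gene si:dkey-238c7.13 was at 934, 1958, 152 and 54.7 CPM (log2 fold change -3.92, SE 0.49, adjusted p = 0.00672). The unnamed gene si:dkeyp-1h4.9 was at 867, 1074, 158 and 133 CPM (-2.79, SE 0.28, adjusted p = 0.00169), and ifi27.2, of a family induced by interferon, at 828, 172, 31.5 and 22.2 (-4.22, SE 0.64, adjusted p = 0.0300). In each of the 3, both wild-type plates lay above both mutant plates. All 3 were called over all wells too, at 668, 1016, 49.8 and 45.4 CPM for si:dkey-238c7.13, 353, 509, 55.9 and 94.8 for si:dkeyp-1h4.9 and 189, 229, 19.1 and 13.9 for ifi27.2. The paper uses si:dkeyp-1h4.9 as a marker of its fibroblast cluster 2. By in situ hybridization it reports a strong loss of this transcript in injured prrx1b-/- hearts, the same direction as here. DESeq2 called 11. Leaving out a plate leaves a single plate in a genotype, so no count is given for those fits. Whether the 3 calls hold without a plate was therefore not decided.

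The gene si:dkeyp-1h4.9 also stood out between the groups of wells. It was at 867, 1074, 158 and 133 CPM in PTGS2-rich cells and 334, 471, 44.6 and 85.7 in other wells (log2 fold change 1.28, SE 0.17, adjusted p = 7.47e-06), higher on all 4 plates, with the wild-type plates high and the mutant plates low in both. The call was lost without the wells with pericyte genes (0.73, adjusted p = 0.0831). This marker of a fibroblast cluster of the paper was not on the fibroblast list above. It rose, whereas the called genes of that list were all lower, so the list does not speak for every fibroblast marker.

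The test of whether PTGS2-rich cells differed from other wells to another degree in prrx1b-/- called 9 of 9854 genes (0.0913%), 5 with a higher (0.0507%) and 4 with a lower (0.0406%) value in the mutant, and DESeq2 called 2. Of the 9, the neuropeptide gene npb had the lowest p. It was at 799.6, 202, 97.2 and 136 CPM in PTGS2-rich cells and 55.9, 85.1, 89.4 and 239 in other wells, so that it was higher in PTGS2-rich cells of wild type and lower in those of mutant plate 2 (interaction on the log2 scale -2.93, SE 0.37, adjusted p = 1.31e-11). That call was lost without wild-type plate 1 or mutant plate 2. In the PTGS2-rich cells npb rested on 83, 34, 37 and 92 transcripts, from 22 cells. ENSDARG00000010729 was at 38.5, 59.3, 44.6 and 17.8 CPM against 178, 313, 20.7 and 7.20, lower in PTGS2-rich cells of wild type and higher in those of the mutant (3.63, SE 0.57, adjusted p = 1.17e-06). In the PTGS2-rich cells it rested on 4, 10, 17 and 12 transcripts. Among the genes that rose with PTGS2, cxcl18b, il11a and ZFP36L1 had interactions of 0.20, 0.03 and -0.11 on the log2 scale (adjusted p = 0.990, 1 and 0.993).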

How the data were processed

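Cells of the tcf21 lineage were sorted singly into 4 plates and sequenced by CEL-Seq2 as described above. The authors deposited expected counts of transcripts per gene and well, mapped to Zv9 (BWA 0.6.2 in the submitters' processing notes) and not scaled for depth. All 1049 PTGS2 values above 0 match, within 0.006, whole barcode numbers adjusted for chance collisions among 4096 barcodes of 6 bases, whereas the labels name 4 bases. Depth after the filter was 2628354 to 3773059 transcripts per plate. No doublet caller was run, since a single cell was sorted per well. Gene symbols came from a table of IDs, with 16179 of 20880 genes matched. Counting by strand is not given in the sources used here, so overlapping and near-identical genes may share reads.

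Expected counts were summed per plate over PTGS2-rich and over other wells and rounded. Low genes were removed with filterByExpr, TMM factors were applied, and edgeR 4.0.16 gave the tests (quasi-likelihood, two-sided, Benjamini-Hochberg adjusted p under 0.05), with the plate as a block between PTGS2-rich and other wells and no block between genotypes. Interactions used the same 8 sums. Shares and medians were compared by exact permutation over plates, two-sided. The script was tested on simulated data. DESeq2 1.42.0, other scaling, no filter, other cutoffs, thinned wells and left-out plates were alternatives. Named genes were the 12 largest changes in each direction with the same sign on all 4 plates and at least 50 transcripts in PTGS2-rich cells (higher) or 200 in other wells (lower), the prostaglandin genes, cell type markers and up to 4 called genes of each other list. The cells and lists were chosen with earlier results of these data known.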

Additional observations from a re-analysis of the deposited data

Results flagged for a closer look

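The test of the difference between the genotypes singled out 9 genes, listed here as the log2 fold change of PTGS2-rich cells over other wells in prrx1b-/- minus that in wild type, with edgeR's adjusted p. The neuropeptide gene npb (-2.93) and ENSDARG00000010729 (3.63) are described above with their values by plate. TIMP2, an inhibitor of matrix metalloproteinases, was at 1618, 949.5, 491 and 718 CPM in PTGS2-rich cells and 817, 1112, 1135 and 1044 in other wells (-1.11, SE 0.25, adjusted p = 0.0284), with wild-type plate 1 high. PTX3 fell in PTGS2-rich cells of all plates and by more in wild type (1.19, SE 0.28, adjusted p = 0.0405). HES4, a target of Notch signalling, was at 231, 107, 578 and 213 CPM against 413, 339.8, 355 and 318 (1.45, SE 0.34, adjusted p = 0.0405), with mutant plate 1 high and 21.1% of its transcripts in PTGS2-rich cells from 1 well.

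Few wells also carried npb and ENSDARG00000010729, found in 22 and 23 PTGS2-rich cells. The other 4 genes rested on few wells or few transcripts as well. The guanylate-binding protein gene gbp1 was at 9.63, 23.7, 55.1 and 34.03 CPM against 72.6, 89.5, 33.1 and 25.2 (2.88, SE 0.70, adjusted p = 0.0465), from 26 PTGS2-rich cells. For ENSDARG00000052631 (-2.88, SE 0.67, adjusted p = 0.0405), 50.1% of the transcripts in PTGS2-rich cells came from 1 well. The antigen presentation gene cd74a (-7.51, SE 1.81, adjusted p = 0.0405) was found in 5 PTGS2-rich cells, with 2, 30, 0 and 0 transcripts on the 4 plates, and the tumour necrosis factor gene tnfb (9.66, SE 2.27, adjusted p = 0.0405) in 16, with 0, 0, 9 and 45. For these last 2 genes 1 genotype had no transcript in the PTGS2-rich cells, so the fitted values depend on the prior count and are no bound.

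Leaving out 1 plate at a time removed the call at least once for each of the 9 but ENSDARG00000010729. Such fits leave a single plate in a genotype, and groups of 2 plates were too small for a check of single plates that stand apart.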

How the results depend on the processing

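Of 49 named genes compared between PTGS2-rich cells and other wells, 41 kept their direction under every alternative in which they were tested, and 8 also passed the threshold in each: si:ch211-174j14.2, c7b, IRAK3, acta2, RGS5, ZFP36L1, cxcl18b and il11a. For the 239 genes called, leaving out a plate gave 95 to 248. Taking the top 5% of wells gave 146, the top 20% gave 790, thinning gave 56, wells of matched depth 149 and other wells without PTGS2 only 707. Leaving out the plate term (no replicate block) gave 99, and the fibroblast list then had 0 calls. Among the alternatives chosen after seeing the data, wild-type plates alone gave 69, mutant plates alone 284 and leaving out wells with acta2, MYH11, RGS5 or CSPG4 gave 81. Signs turned for RAVER2 with the top 5% of wells (-0.011, adjusted p = 0.997), for krt18a.1 (0.22, adjusted p = 0.321), PTX3 (1.35, adjusted p = 0.0385), COL12A1 of ID ENSDARG00000019601 (0.11, adjusted p = 0.678) and COL11A1 (0.73, adjusted p = 0.155) against wells without PTGS2, and for twist2 (-0.26, adjusted p = 0.982), INHBA (0.22, adjusted p = 0.953) and igf2b (-0.094, adjusted p = 0.981) without the wells with pericyte genes. The cause was not tested. Calls with wild-type plates alone rest on 41 PTGS2-rich cells.

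The 9 genes of the interaction test became 2 with DESeq2, 5 with no filter and 2 to 28 without a plate, and ENSDARG00000052631 lay from -5.05 to 6.92 without a plate, turning without wild-type plate 2. Within PTGS2-rich cells the 3 calls became 11 with DESeq2, 30 with no filter and 0 to 88 without a plate. Over all wells the 109 calls became 169 with DESeq2, 523 with no filter and 99 to 582 without a plate. The log2 fold change of PTGS2 between the genotypes passed the threshold with DESeq2 (0.72) and with no filter (0.75). It did not pass in edgeR with DESeq2's size factors (0.72, adjusted p = 0.0795). Without a plate it lay from 0.48 (mutant plate 2 left out) to 0.94 (mutant plate 1 left out). Those fits leave a single plate in a genotype, so only the size is given. The difference in the share of PTGS2-rich cells lay from 4.71 to 12.4 percentage points without a plate.

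The labels number the plates 1 and 2 in each genotype. Same-numbered plates deviated together only weakly (correlation 0.04 over all wells and 0.06 in PTGS2-rich cells), and nothing says that a number marks shared fish, so the plates share only a number. With that number as a replicate block the calls were 9 within PTGS2-rich cells and 476 over all wells, and PTGS2 passed (0.70).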

Other observations

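Over all wells, several genes of the prostaglandin pathway other than PTGS2 were higher on both mutant plates, and others were lower on both. How many of all genes had either order was not counted. Of the 19 genes of the pathway tested besides it, edgeR called 0 and 6 had an unadjusted p under 0.05, as did 1572 of all 11191 genes tested (14.0%). The phospholipase gene PLA2G4A (ENSDARG00000024546) was at 98.1, 105, 122 and 160.2 CPM on wild-type plates 1 and 2 and mutant plates 1 and 2, above the wild type on both mutant plates (log2 fold change 0.49, SE 0.17, adjusted p = 0.209). PTGES, for the synthase of prostaglandin E2, was at 353, 339, 398 and 445 CPM, again with no overlap (log2 fold change 0.30, SE 0.14, adjusted p = 0.355). SLCO2A1, which takes up prostaglandins, was at 3.77, 6.09, 10.9 and 13.0 CPM, from 113 transcripts (log2 fold change 1.29, SE 0.36, adjusted p = 0.124). The receptor gene PTGER4 was at 21.3, 33.9, 41.6 and 41.9 CPM (log2 fold change 0.62, SE 0.23, adjusted p = 0.254), also higher on both mutant plates. PTGER2 was at 73.4, 55.6, 53.3 and 53.5 CPM (log2 fold change -0.26, SE 0.17, adjusted p = 0.545), and ptgs1 at 16.5, 8.75, 8.75 and 13.0 (log2 fold change -0.21, SE 0.34, adjusted p = 0.841), the former lower on both mutant plates and the latter with overlap.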
